A study of Drosophila melanogaster with 6 samples.

Results

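The region described here is a window of 400 kb on the right arm of chromosome 3 of Drosophila melanogaster (3R, 17.1 to 17.5 Mb), in which peaks of the Polycomb-group protein Polycomblike (Pcl) lie close together. Its members are all ChIP-seq peaks whose summit falls in the window, in the coordinates of the peak lists. There were 264 such peaks among the 12061 of the 4 lists. Pcl A and Pcl B each held 127 of them, and Jarid2 A and Jarid2 B each held 5. The window was chosen because Pcl peaks are dense there, so the number, width, fold and covered length of its Pcl peaks are given as a description, with no test.

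Embryos collected 12 to 24 h after laying expressed Pcl or Jarid2 with BioTAP, a tag that allows successive affinity purifications. Tagged chromatin complexes were purified and their DNA sequenced, with 2 libraries (A and B) of Pcl and as many of Jarid2. The inputs were not analysed here. The labels do not give the promoter, the insertion or the strain behind either tagged protein, and the chromatin comes from whole embryos, so a peak cannot be assigned to a tissue. Pcl and Jarid2 libraries were run on different sequencing lanes, as the peak names show, and protein and lane cannot be told apart. Read totals are unknown. The labels name libraries A and B without saying whether they came from separate collections.

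Pcl and Jarid2 both join the methyltransferase complex of the Polycomb group, which acts on histone H3, and they belong to different variant forms of it. In flies this complex acts from short recruitment elements, around which the methylated histone spreads over long domains, and homeobox gene clusters are among its best known targets. The NK homeobox cluster lies about here. In the RefSeq gene table of Release 6 its genes follow each other on 3R as tin, bap, lbl, lbe, C15 and slou. The first, tin (tinman), specifies heart and other dorsal mesoderm, and bap (bagpipe) the gut musculature. Both ladybird genes, lbl and lbe, and slou (slouch) give identity to particular muscle and heart precursors, and C15 acts in the tips of legs and antennae. The table shows lbl and lbe as direct neighbours, as are tin and bap, with 4 other protein-coding genes between bap and lbl. Its coordinates belong to Release 6 and the peaks to Release 5, so no peak is assigned to a gene here and no sequence of a peak is printed.

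All but one of the Pcl peaks lay in a stretch in the middle of the window. In Pcl A the stretch ran from 17203161 to 17395596 and held 126 peaks, and in Pcl B it ran from 17203601 to 17393712 and held 127. Its left ends were 440 bp apart in the replicate lists and its right ends 1884 bp apart, on a length of 192 kb (Pcl A) or 190 kb (Pcl B). Outside it the lists were nearly empty. Before the left end, Pcl A had no peak for 114 kb and Pcl B none for 531 kb. After the right end, Pcl A had no peak for 102 kb and Pcl B none for 474 kb. The exception was a peak of Pcl A from 17497840 to 17498070, with a fold of 2.48 and no counterpart in Pcl B. It lay 2.09 kb inside the right limit of the window, while the nearest Pcl A peak outside the left limit had its summit 10.9 kb away and a fold of 2.80. Beyond the right limit the next Pcl summits were 380 kb (Pcl A) and 368 kb (Pcl B) away, and beyond the left limit the next Pcl B summit was 427 kb away, so the limits divide no run of peaks.

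**Figure D1:**
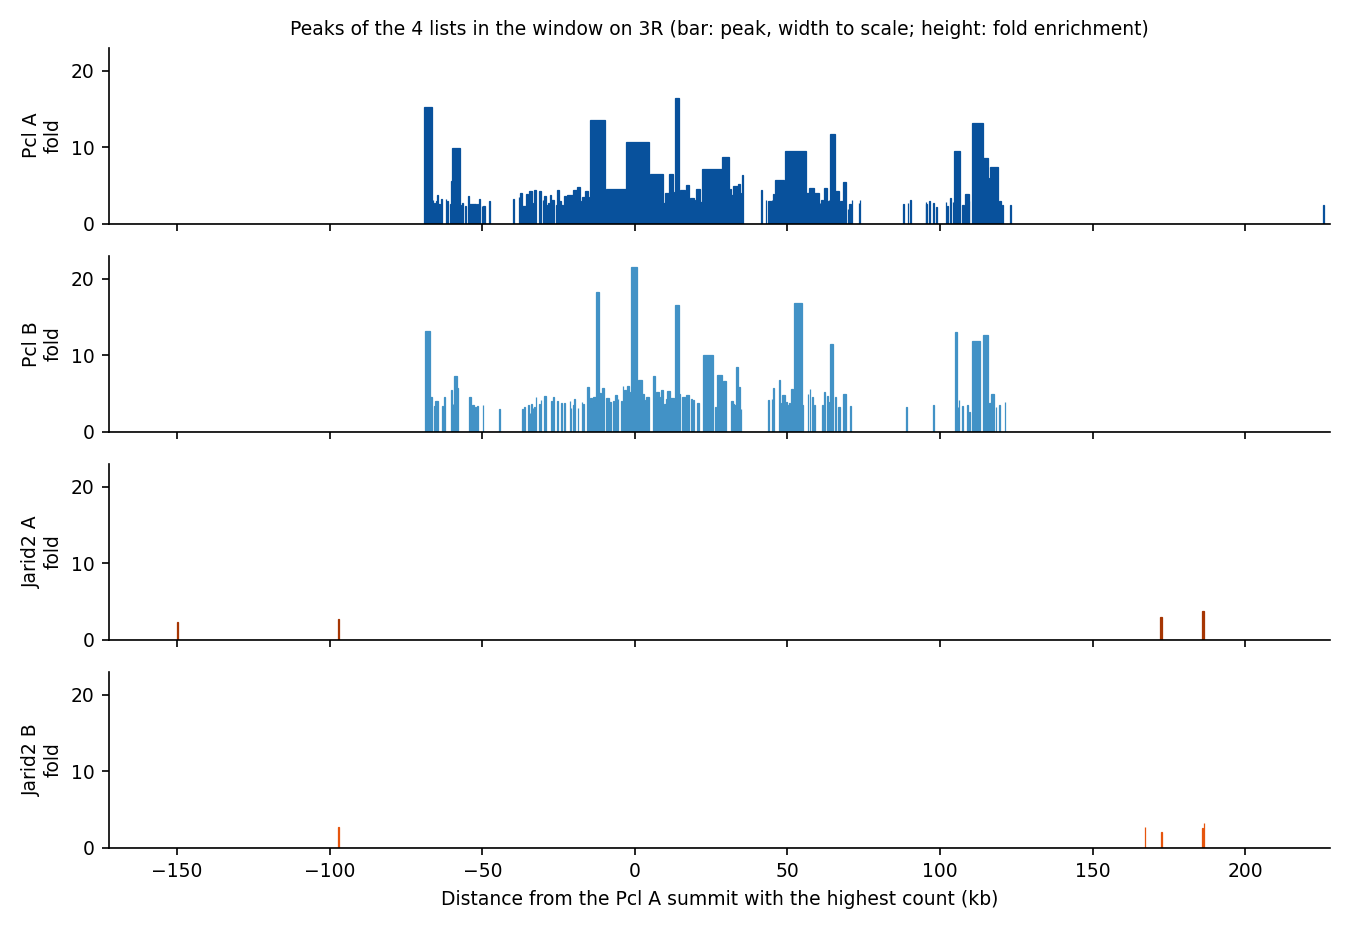
Peaks of the 4 lists in the window, with Pcl above Jarid2. The x axis gives the distance in kb from the Pcl A summit with the highest recovered count, each bar is a peak drawn to its width, and its height is the authors' fold enrichment. The 127 peaks of Pcl B and all but 1 of the 127 of Pcl A fall in a stretch that no Jarid2 peak enters.

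Peaks of Pcl A covered 119 kb of the window and those of Pcl B 67.4 kb, or 29.8% and 16.9% of its length. Over the rest of the main arms (chromosome 4, X and both arms of 2 and 3) the share covered was 2.84% (Pcl A) and 1.46% (Pcl B). The mean covered length in the window was 93.3 ± 36.6 kb (SD, n = 2) for Pcl and 1.22 ± 0.301 kb (SD, n = 2) for Jarid2. Both Pcl values lay above both Jarid2 values, and with 2 libraries per protein an exact permutation test could not give a p below 0.333. The window makes up 0.338% of the main arms and held 2.46% of all Pcl A peaks and 3.24% of all Pcl B peaks, but 0.261% of Jarid2 A peaks and 0.474% of Jarid2 B peaks. Equal peak numbers in the Pcl lists went with unequal covered length, because the peaks of Pcl A were wider.

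Among Pcl A peaks in the window the lowest width was 157 bp, the median 466 bp and the highest 7474 bp, and 33 of 127 were wider than 1000 bp (26.0%, with 14.6% in the whole list). These 33 held 68.9% of the Pcl A length there. Among Pcl B peaks the lowest width was 151 bp, the median 321 bp and the highest 3354 bp, and 15 of 127 were wider than 1000 bp (11.8%, with 8.91% in the whole list). Fold enrichment ranged from 1.93 to 16.4 in Pcl A, with a median of 3.18 in the window and 3.09 over the rest of the main arms. In Pcl B it ranged from 2.39 to 21.5, with medians of 4.22 and 4.06. Thus the typical peak of the window had a fold close to that of the list it came from. A fold over 10 was reached by 6 Pcl A peaks (4.72%, with 3.11% in the whole list) and by 10 Pcl B peaks (7.87%, with 5.9% in the whole list).

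**Figure D2:**
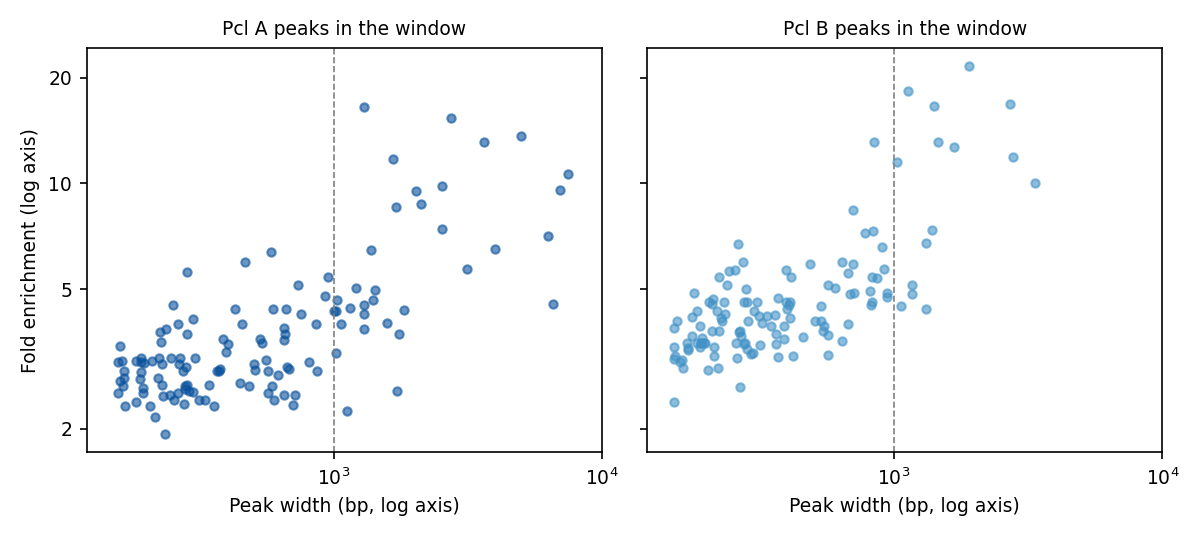
Width in bp and fold enrichment of each Pcl peak in the window, both on log axes, with Pcl A on the left and Pcl B on the right. The dashed line marks 1000 bp, which 33 Pcl A peaks and 15 Pcl B peaks exceed, and the peaks with a fold over 10 are wider than this line in Pcl A and, with 1 exception, in Pcl B.

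Within the stretch, peaks of both Pcl lists were joined into domains where they lay at most 1 kb apart. This gave 13 domains, of which 6 held peaks of both lists, 6 held only Pcl A peaks and 1 only a Pcl B peak. The 6 domains of Pcl A alone were short, from 253 to 1334 bp, with a highest fold of 2.42 to 4.38. The 6 domains of both lists summed to 145 kb, and the 4 of at least 5 kb held 97.4% of that length. The number and length of domains rest on the joining distance and on Pcl A. By the same rule, Pcl B alone gave 28 domains in the window, the longest of 22.0 kb, and Pcl A alone gave 15, the longest of 73.6 kb.

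The first long domain ran from 17203161 to 17223317 (20.2 kb), with 23 Pcl A and 15 Pcl B peaks that covered 67.4% and 32.2% of it. Its strongest peak stood at its left end. The summit lay 1448 bp inside the left edge in Pcl A, with a fold of 15.3, and 1043 bp inside it in Pcl B, with a fold of 13.1. The left side of the whole stretch was therefore a step from no peak to one of the strongest sites, in both lists. The right side was gradual, with single peaks of fold 2.42 in Pcl A and 3.86 in Pcl B as the last ones.

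The second long domain was the longest, from 17234261 to 17307871 (73.6 kb). It held 52 Pcl A and 71 Pcl B peaks, which covered 86.3% and 53.9% of it. Here Pcl A had fewer and wider peaks than Pcl B. The widest Pcl A peak, of 7474 bp from 17269420 to 17276893, was overlapped by 9 Pcl B peaks that filled 82.6% of it. The neighbouring peak of 6534 bp, from 17262818 to 17269351, was overlapped by 8 Pcl B peaks.

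The third long domain ran from 17315161 to 17343529 (28.4 kb), with 23 Pcl A and 25 Pcl B peaks that covered 83.4% and 42.4% of it. The fourth ran from 17374088 to 17393712 (19.6 kb), with 14 and 13 peaks that covered 74.2% and 43.4%. Stretches without a peak in either Pcl list separated the domains. The longest one between peaks of the stretch was 14.1 kb, from 17346171 to 17360266, and the next was 5.62 kb, from 17307871 to 17313490. The median gap between successive peaks of the window was 180.5 bp for Pcl A, against 337.5 bp for Pcl B, and 14 gaps of Pcl A and 27 of Pcl B were over 1 kb long.

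Domain edges of the replicate lists were compared at the 6 domains held by both. The distance between the Pcl A edge and the Pcl B edge had a median of 736 bp over these 12 edges, and 3 edges agreed within 500 bp. Pcl A reached farther out at 11 of the 12 edges. The exception was the right edge of the fourth long domain, where Pcl B reached 725 bp beyond Pcl A, and the largest distance, 3050 bp, was at the left edge of the same domain. Joining across 0 bp or up to 3 kb moved the median edge distance to 99.5 bp and 2085.5 bp, so it describes domains of this definition only.

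Of the 40 bins of 10 kb in the window, 20 held Pcl A coverage and 19 of these also held Pcl B coverage. Pcl A covered more than Pcl B in all of the 19 bins. The share of a bin covered in Pcl A was over 50% in 11 bins and in Pcl B in 6. Coverage varied alike in the lists. The 20 bins with coverage include the last bin of the window, outside the stretch, with 2.31% covered in Pcl A and nothing in Pcl B. They leave out the bin from 17350 to 17360 kb, inside the stretch, which neither list covered. Over these 20 bins, Pearson's r between the lists was 0.917 and Spearman's rho 0.940. These are descriptions over neighbouring bins of the same pair of libraries.

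**Figure D3:**
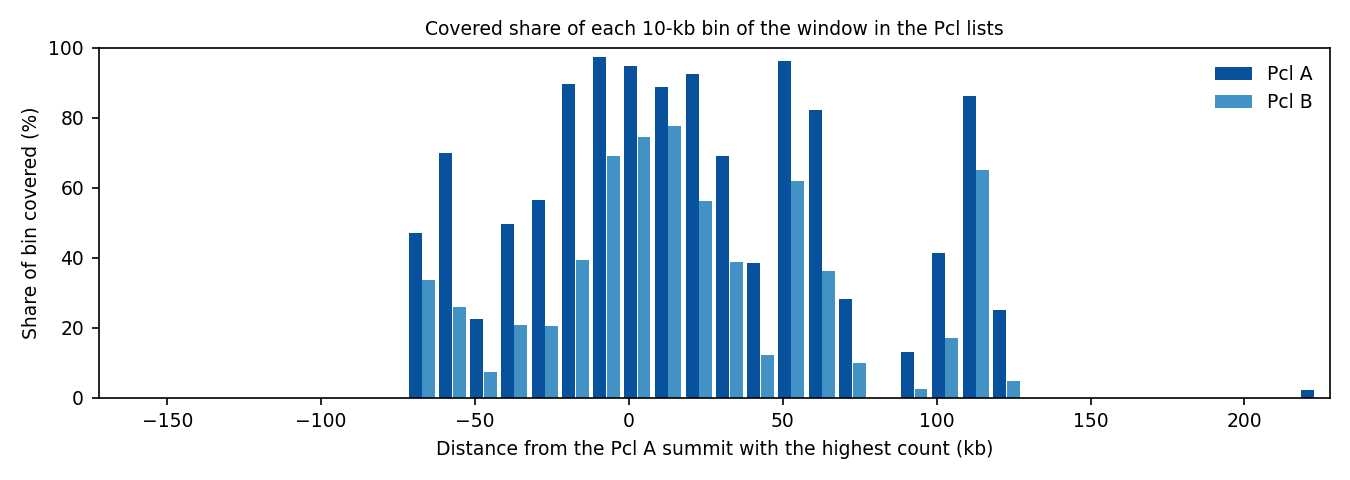
Share in percent of each 10-kb bin that is covered by Pcl A and by Pcl B peaks, against the distance in kb from the Pcl A summit with the highest recovered count. Pcl A is above Pcl B in every bin that both cover, and both have low coverage in the same bins between the long domains.

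Of the 127 Pcl B peaks, 122 were overlapped by a Pcl A peak by at least 1 bp, or 96.1% (Wilson 95% interval 91.1 to 98.3%), with 86.6% in the whole Pcl B list. Of the 127 Pcl A peaks, 75 were overlapped by a Pcl B peak, or 59.1% (50.4 to 67.2%), with 42.6% in the whole Pcl A list. Both shares were above those of the lists, but the window was chosen for its dense Pcl peaks. Peaks covered 61.8% of the stretch for Pcl A and 35.5% for Pcl B. Over the rest of the main arms they covered 2.84% and 1.46%. Overlap by position alone is therefore more likely here, and the higher shares cannot show closer agreement of the replicates. The intervals cover counting error only, and neighbouring peaks are not independent. The parts that peak width and peak density play in these shares were not tested. Pcl A peaks with a counterpart had a median width of 811 bp and a median fold of 3.98, and those without one 249.5 bp and 2.92. The highest fold of a Pcl A peak without a counterpart was 6.39. All 33 Pcl A peaks wider than 1000 bp had a counterpart, against 23 of 29 from 500 to 1000 bp and 19 of 65 up to 500 bp. Shares by width were not worked out for the whole list. In base pairs, 94.1% of the Pcl B length lay within Pcl A peaks and 53.2% of the Pcl A length within Pcl B peaks. The Jaccard index (the base pairs in both lists as a share of those in at least 1) was 51.5%, where the unequal lengths allowed at most 56.6%. Over the whole lists the shares of length were 88.1% (Pcl B) and 45.6% (Pcl A). The whole-list Jaccard index was 43.0%, of at most 51.8%.

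The strongest peaks stood at nearly the same base in both libraries. A fold of at least 9 was reached by 9 Pcl A and 10 Pcl B summits, a threshold chosen after the values were seen. These made up 11 sites, numbered from left to right, and at each the lists' summits were 1 to 43 bp apart, with a median of 17 bp. At site 5 the summits were at 17285881 (Pcl A) and 17285880 (Pcl B), and at site 8 at 17336820 and 17336821. Successive sites were 3.64 to 46.6 kb apart, with a median of 11.8 kb. At lower folds the share was smaller. Of the 37 summits of either list with a fold from 5 to under 9, 10 had a summit of the other list within 100 bp, or 27.0%. Those 10 include the weaker partners at sites 2 (Pcl B, fold 7.23), 6 (Pcl A, 7.08) and 11 (Pcl A, 8.54). Of all Pcl B peaks in the window, 63.8% had a Pcl A summit within 500 bp, although 96.1% overlapped a Pcl A peak.

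The highest fold in Pcl A was 16.4, at site 5, in a peak from 17285476 to 17286767. This peak was number 22 of the 5173 Pcl A peaks by fold. Next came site 1 (15.3, 17203161 to 17205896), site 3 (13.6, 17257628 to 17262623), site 10 (13.1, 17382685 to 17386323) and site 8 (11.7, 17336156 to 17337810). In Pcl B the order was another. Its highest fold was 21.5, at site 4, in a peak from 17271161 to 17273062, which was number 40 of the 3917 Pcl B peaks. Site 3 (18.3, 17259462 to 17260587), site 7 (16.8, 17324270 to 17326980), site 5 (16.6, 17285374 to 17286779) and site 1 (13.1, 17203601 to 17205054) followed. Each list had 4 peaks of the window among its 100 highest folds, where the window held 2.46% of all Pcl A and 3.24% of all Pcl B peaks. These counts are near those shares and are not read as an excess.

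The number of fragments stacked at a summit and the background under it were recovered from the fold and p of each peak, as set out with the processing. In both Pcl lists this gave a single whole count for all 127 peaks of the window. Counts ranged from 17 to 306 in Pcl A, with a median of 28, and from 10 to 238 in Pcl B, with a median of 17. The commonest background was 6.54 for Pcl A and 2.70 for Pcl B, a ratio of 2.42. Within a tolerance of 0.02 it applied to 45 of the Pcl A peaks and 43 of the Pcl B peaks of the window (35.4% and 33.9%), against 33.7% and 37.1% over the rest of the main arms. In both Pcl lists the 3 highest backgrounds of the window lay under the 3 highest counts.

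By count, site 4 was first in both lists, with 306 in Pcl A and 238 in Pcl B. Its background was 27.9 (Pcl A) and 10.1 (Pcl B), the highest of the window in each list. Site 3 followed with 260 and 174, site 7 with 251 and 155, and site 1 with 189 and 106. So the same 4 sites led in both lists, in the same order. Site 5, first by fold in Pcl A, had counts of 123 and 73 over backgrounds of 6.54 and 3.45. At site 4 the fold was 10.6 (Pcl A) and 21.5 (Pcl B), which is a count ratio of 1.29 between Pcl A and Pcl B set against a background ratio of 2.77.

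Across the 11 sites Spearman's rho between the lists was 0.973 for the count, 0.809 for the background and 0.382 for the fold. The sites were chosen by fold, which narrows its range. Over all 39 pairs of Pcl summits of the window that were each other's nearest and within 100 bp, rho was 0.883 for the count and 0.857 for the fold. These values are descriptions of 1 pair of libraries. Pcl A had the higher count at 11 of 11 sites, by a ratio of 1.29 to 2.67, and the wider peak at 10 of 11, while the fold was higher in Pcl B at 7. The part of sequencing depth in the wider calls of Pcl A was not tested.

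**Figure D4:**
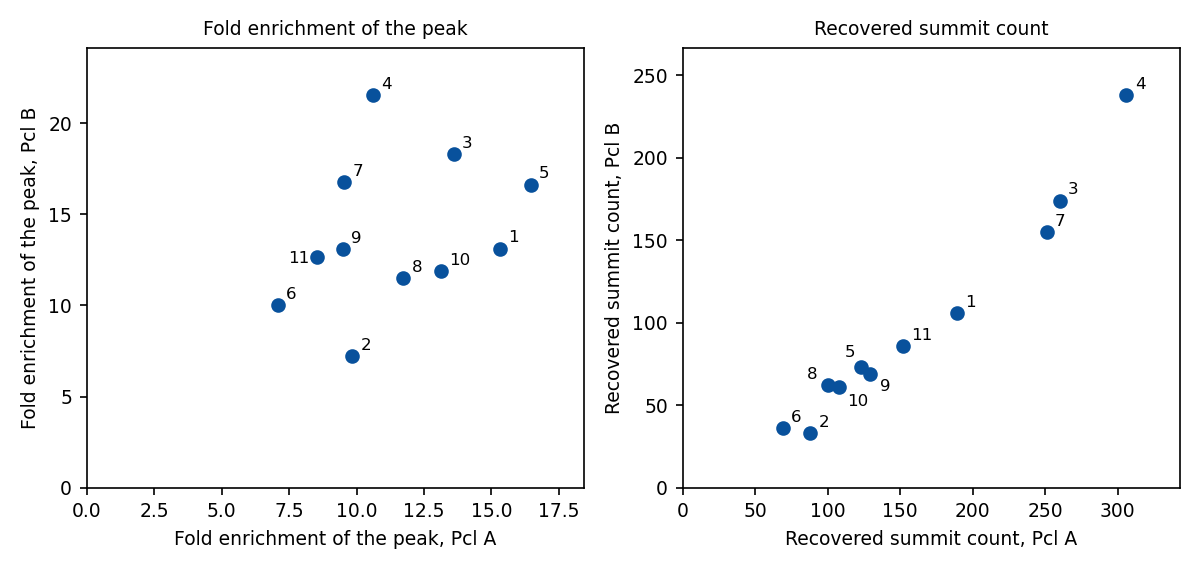
Fold enrichment (left) and recovered summit count (right) at the 11 strongest Pcl sites, with Pcl A on the x axis and Pcl B on the y axis, both starting at 0, and each point numbered by its place from left to right. Sites 4, 3, 7 and 1 lead by count in both lists, while by fold site 5 is first in Pcl A and site 4 in Pcl B.

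No Jarid2 peak lay in the stretch of Pcl peaks. All 5 peaks of Jarid2 A and all 5 of Jarid2 B were in its flanks, between 27.8 and 49.2 kb from the nearest Pcl peak of either list. For some of them that nearest peak was a lone Pcl A peak outside the stretch, with no counterpart in Pcl B. To the nearest Pcl B peak, which was always in the stretch, the distances were 28.2 to 81.1 kb. At the mean density of their lists on the main arms, a stretch of this length would hold 3.05 Jarid2 A peaks and 1.70 Jarid2 B peaks, so the absence is of few peaks. Accordingly none of the 5 Jarid2 peaks of either list was overlapped by a Pcl peak, with 22.2% of Jarid2 A and 22.6% of Jarid2 B peaks overlapped in the whole lists. A count of 0 among 5 allows a share of up to 60.0%, taken as 3 counts of the total, and the Wilson 95% interval of the same 0 ends at 43.4%. In the other direction, none of the 127 Pcl A peaks and none of the 127 Pcl B peaks was overlapped by a Jarid2 peak (5.63% and 7.89% in the whole lists). For the peaks in the stretch this follows from the absence of Jarid2 peaks there, so it is no separate result. Each 0 would allow up to 2.36% by 3 counts and 2.94% by the Wilson interval. These limits cover counting error only and treat neighbouring peaks as independent, which they are not. They therefore cannot show that the overlap is lower here than in the whole lists.

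The Jarid2 peaks of the window had a median fold of 3.04 (Jarid2 A) and 2.71 (Jarid2 B), against 3.04 and 3.00 over the rest of the main arms. Of the 5 in each list, 4 were overlapped by a peak of the other replicate, with 49.6% in the whole Jarid2 A list and 87.8% in the whole Jarid2 B list. To the left of the Pcl stretch, both lists had a peak with its summit at 17175263 in Jarid2 A (fold 2.74) and 17175273 in Jarid2 B (fold 2.71). To its right, summits lay at 17445030 (fold 3.04) and 17444974 (fold 2.01). A pair of peaks followed at 17458339 and 17458646 in Jarid2 A, with folds of 3.75 and 3.75, and at 17458367 and 17458711 in Jarid2 B, with folds of 2.60 and 3.21. Thus matched Jarid2 summits were 10 to 65 bp apart. The unmatched ones were at 17122383 in Jarid2 A (fold 2.33) and at 17439455 in Jarid2 B (fold 2.77). At the limits of the window the next Jarid2 peaks outside had summits at 17029112 in Jarid2 A and 17014643 in Jarid2 B on the left, and at 17545292 and 17545310 on the right, with folds of 2.46, 2.21, 4.53 and 3.75. In Jarid2 A the 5 peaks of the window had recovered counts of 46 to 98 over backgrounds of 15.3 to 31.6, where the commonest background of that list was 6.23 and the median over the rest of the main arms 12.4. Counts could not be recovered for the 5 Jarid2 B peaks.

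Among 1163 windows of 400 kb placed every 100 kb on the main arms, which overlap their neighbours, this one had rank 9 by covered length in Pcl A and rank 10 in Pcl B. By number of peaks its rank was 16 in Pcl A and 12 in Pcl B. Only 2 windows that do not overlap it or each other had a higher mean covered length of Pcl, both on 3R. These hold the bithorax complex (12.5 to 12.9 Mb) and the Antennapedia complex (2.5 to 2.9 Mb), the homeotic gene clusters of the fly. Pcl A covered 119 kb here, 260 kb in the bithorax window and 228 kb in the Antennapedia window, and Pcl B covered 67.4 kb, 172 kb and 123 kb in the same order. Median peak widths were 466 bp here against 491.5 and 420 bp in Pcl A, and 321 bp here against 329.5 and 281 bp in Pcl B. Median folds in the same order were 3.18, 3.44 and 3.32 in Pcl A, and 4.22, 4.32 and 4.06 in Pcl B. The highest folds were 16.4, 17.6 and 18.7 in Pcl A, and 21.5, 32.4 and 28.8 in Pcl B. Jarid2 peaks of these windows were fewer. In the bithorax window 2 of 3 Jarid2 A and 2 of 2 Jarid2 B peaks were overlapped by Pcl, and in the Antennapedia window 4 of 4 and 3 of 3, set beside 0 of 5 and 0 of 5 here. These differences between windows were not tested.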

How the data were processed

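The authors deposited 1 peak list for each purified library, in the narrowPeak layout, with replicates not pooled. The submitters' processing notes name Trimmomatic 0.36, Bowtie 1.2.2, deepTools 3.0.2, MACS2 2.1.1 and the build dm3 (Release 5), without their settings. The control used is not given in the sources used here. The deposited lists give each peak's fold enrichment as a linear ratio, its −log10 p and −log10 q, a score that is the whole part of 10 times −log10 q, and the summit offset. Per the labels' protocols, chromatin was fixed with 3% formaldehyde for 30 min and adaptor-ligated DNA of 250 to 500 bp was kept.

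Peaks belong to the window by their summit, and positions are printed 1-based. Peaks of different lists counted as overlapping from 1 common bp on. Counts at summits were recovered by assuming that the fold is count plus 1 over background plus 1 and that p is a Poisson tail. Whole counts up to 2000 were tried. For each, the background followed from the fold, and −log10 p had to match within a relative tolerance of 0.001. The match was unique for 100% of Pcl A, 99.9% of Pcl B, 99.8% of Jarid2 A and 6.45% of Jarid2 B peaks. No test was run on the members. The window, the domain rule and the comparisons were chosen with earlier results of these data known. Regions named are domains of at least 5 kb in both Pcl lists, the 5 highest folds of each Pcl list, all Jarid2 peaks, peaks next to the limits and the longest gaps. Scripts ran in Python 3.11.15 with pandas 2.3.3 and numpy 2.4.6, Poisson and Wilson calculations in scipy 1.17.1, and plots in matplotlib 3.10.9.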

Additional observations from a re-analysis of the deposited data

How the results depend on the processing

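Of 62 alternatives over 22 values, 20 moved a value beyond its limit. The limits were 1.5 times for counts, domain lengths, the edge distance and the Jaccard index, the Wilson interval for shares and 1 SD between replicates for the rest. Membership by any overlap with the window changed nothing. Keeping peaks with q at or below 1e-05 left 73 Pcl A, 68 Pcl B and 3 Jarid2 B peaks, with 0.612 kb covered in Jarid2 B, raised the median fold to 4.24 in Pcl A, 5.01 in Pcl B and 3.39 in Jarid2 A, and gave 11 domains of both Pcl lists. Cutting Pcl A to the 3917 peaks of Pcl B raised its overlapped share to 67.7%, and summits within 500 bp lowered that of Pcl B to 63.8%. Joining across 0 bp gave 60 domains, a longest one of 14.1 kb and a median edge distance of 99.5 bp. Joining across 3 kb gave an edge distance of 2085.5 bp, and across 5 kb 3 domains and 1415 bp. Leaving out 1 Pcl library gave 15 to 28 domains, with a longest one of 22.0 to 73.6 kb. These numbers count every domain of a single list, while the 6 they were set against had peaks of both lists. All domains of the joined lists in the window numbered 14. The share of strong summits matched within 100 bp fell to 51.8% at a fold of at least 5, an alternative chosen after seeing the data, and stayed at 100% at a fold of at least 12. No Jarid2 peak lay in a domain under any joining distance or in either library alone. These settings could not give another result, because the smallest distance from a Jarid2 peak to a Pcl peak was 27.8 kb. The covered length of Pcl minus Jarid2 averaged 92.0 kb, and 66.2 to 118 kb with 1 library left out. With a replicate block, pairing by letter, it was 92.0 kb by construction, as pairing leaves this mean unchanged, with no test. Whether the letters pair the libraries is not given in the labels. Beyond what the construction of a setting fixes (fewer peaks, other joins, fewer libraries), the cause was not tested. Read depth is unknown, so absence from a list can be a lack of depth.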

Other observations

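Outside the window, on the rest of the main arms, 1167 pairs of Pcl summits were each other's nearest and within 100 bp. Spearman's rho between Pcl A and Pcl B over these pairs was 0.887 for the recovered count and 0.756 for the fold, beside 0.883 and 0.857 over the 39 pairs in the window. The median count of Pcl A over Pcl B was 1.83 in the window and 1.94 outside it, and the median background ratio was 2.42 and 2.45. The difference between the window and the rest was not tested.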
